A study of Homo sapiens with 18 samples.

Results

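The genes described here are the amino acid transporter genes of 7 solute carrier (SLC) families, taken from every row of the deposited table, at all times, whose symbol is a numbered member of SLC1, SLC3, SLC6, SLC7, SLC36, SLC38 or SLC43. The rule uses names alone and found 48 genes of the 21944 in the table. A further 11 genes of these families, among them the glutamate transporter *SLC1A2*, were not analysed here. RNA sequencing was done on human pancreatic progenitors at day 19 of differentiation, which were dissociated with accutase and reseeded on plates coated with fibronectin (FN) or with laminin-411 (LN411), and collected after 3, 6 or 24 h. The 6 groups (FN 3h, LN411 3h, FN 6h, LN411 6h, FN 24h and LN411 24h) held 3 samples each, 18 in all, and the matrix was the one difference named between the groups of a time. By the study and the culture notes the cells came from the NGN3-GFP line, a *NEUROG3* reporter made from the embryonic stem cell line SA121, although the cell line field of the labels names HUES4.

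Amino acid transporters carry amino acids across the plasma membrane or the lysosomal membrane, and most of them exchange 1 amino acid for another or couple uptake to sodium or protons. The SLC7 light chains reach the cell surface only when joined by a disulfide bond to an SLC3 heavy chain. *SLC7A11*, the light chain known as xCT, brings in cystine in exchange for glutamate, and the cysteine that cystine yields is the limiting part of glutathione. Many of these genes are known targets of *ATF4*, the transcription factor of the amino acid and integrated stress responses, and *SLC7A11* is also a target of NRF2, the factor of the oxidative stress response. *ATF4* with a C/EBP partner binds a composite motif, and NRF2 binds the antioxidant response element.

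The promoter windows of 4 members that were lower on LN411 at 24 h are printed because their genes share that direction. They are *SLC3A2* (the heavy chain), *SLC7A5* (a light chain that joins it in 1 transporter), *SLC7A1* (the arginine and lysine carrier) and *SLC1A3* (a glutamate carrier). Each window runs from 250 bases before to 50 bases after a RefSeq start site on GRCh38.p14. Capitals mark letters that match a C/EBP-ATF motif (TGATGNAA), an antioxidant motif (TGACNNNGC) or an E-box (CACGTG) on either strand, and no match overlapped another. Every printed window held a match, and so the printed windows do not stand for all lower members. The windows of *SLC1A1*, *SLC6A9* and *SLC36A4*, which were also lower at 24 h, held none.
SLC3A2, chr11:62881449-62881748, plus strand: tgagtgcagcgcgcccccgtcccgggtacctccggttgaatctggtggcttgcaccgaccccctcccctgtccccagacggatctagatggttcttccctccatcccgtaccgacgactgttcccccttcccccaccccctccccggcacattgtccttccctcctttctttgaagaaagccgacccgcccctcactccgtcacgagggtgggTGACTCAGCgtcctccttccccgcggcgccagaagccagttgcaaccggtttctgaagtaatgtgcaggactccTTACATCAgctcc
SLC7A5, chr16:87869458-87869757, minus strand: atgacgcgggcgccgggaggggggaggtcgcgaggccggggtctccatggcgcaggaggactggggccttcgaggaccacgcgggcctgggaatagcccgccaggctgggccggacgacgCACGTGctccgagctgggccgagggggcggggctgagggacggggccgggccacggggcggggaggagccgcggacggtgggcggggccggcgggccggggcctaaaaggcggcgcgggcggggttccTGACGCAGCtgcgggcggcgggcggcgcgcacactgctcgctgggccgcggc
SLC7A1, chr13:29595639-29595938, minus strand: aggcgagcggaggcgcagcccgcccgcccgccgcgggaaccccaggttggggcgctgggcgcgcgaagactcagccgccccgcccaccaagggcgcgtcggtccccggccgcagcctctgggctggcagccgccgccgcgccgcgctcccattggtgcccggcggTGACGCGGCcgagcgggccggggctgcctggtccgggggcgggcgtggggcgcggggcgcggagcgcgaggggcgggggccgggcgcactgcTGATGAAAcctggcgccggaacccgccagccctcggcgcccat
SLC1A3, chr5:36596338-36596637, plus strand: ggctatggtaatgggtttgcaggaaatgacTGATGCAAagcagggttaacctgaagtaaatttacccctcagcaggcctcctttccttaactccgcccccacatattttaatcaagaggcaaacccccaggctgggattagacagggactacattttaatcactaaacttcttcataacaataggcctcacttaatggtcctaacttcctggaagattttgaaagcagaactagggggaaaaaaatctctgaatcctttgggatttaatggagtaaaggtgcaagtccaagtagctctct
In the window of *SLC3A2* the antioxidant motif began 37 bases before the start site and the C/EBP-ATF motif, on the opposite strand, 38 bases after it. In that of *SLC7A1* the antioxidant motif lay 85 bases before the start site and the C/EBP-ATF motif 8 bases after it. The window of *SLC7A5* held an E-box 130 bases and an antioxidant motif 2 bases before the start site, and no C/EBP-ATF match. The window of *SLC1A3* that is printed held 1 C/EBP-ATF match, 220 bases before the start site. A second *SLC1A3* window, at a start site further along the gene and not printed, held 1 antioxidant match, 196 bases before that site, and no C/EBP-ATF match. RefSeq windows were matched for 37 members (59 windows), and not for *SLC3A1*, *SLC6A2*, *SLC6A6*, *SLC6A12*, *SLC6A15*, *SLC7A2*, *SLC7A3*, *SLC7A4*, *SLC7A11*, *SLC38A3* and *SLC43A3*. The C/EBP-ATF letters were in 6 of the 59 windows (10.2%), against 3.62% of all 35116 windows of this length. The 6 genes were *SLC1A3*, *SLC1A4*, *SLC1A5*, *SLC3A2*, *SLC7A1* and *SLC38A1*. The antioxidant letters were in 7 windows (11.9%, against 13.3% of all) and the E-box in 9 (15.3%, against 7.26%). A match describes the letters and does not show that a factor binds there.

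The table gives, for each gene and time, the log2 fold change of LN411 over FN with its standard error (SE), and 1 mean normalized count over all samples. A gene was called where its adjusted p-value from the authors' DESeq2 fit was under 0.05, with no limit on the fold. Values per sample were not used here, so each member is given by its estimate at each time. At 3 h 45 members were listed and 40 had an adjusted p-value, at 6 h 48 and 32, and at 24 h 43 and 43. The adjusted p-values missing at 3 and 6 h were those of genes whose mean count lay below the filter of the authors' fit. In bulk samples, fewer cells of a type and less RNA per cell cannot be told apart.

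The members spanned a wide range of levels. Per kilobase of the longest transcript, the highest mean normalized count was that of *SLC7A2*, another arginine and lysine carrier, at 5569, followed by *SLC38A2* at 3658, *SLC38A10* at 3083, *SLC3A2* at 2921 and *SLC7A5* at 1608. *SLC7A11* stood at 316 per kilobase, rank 21 of the 48. The same 10 members led when levels were taken per kilobase of all annotated exons. There were 16 members with a mean count under 100, and the 11 of them listed at 24 h had a median SE of 0.42 there, against 0.055 for the 23 members with a mean count of at least 1000. Most of the low members belong to SLC6, among them the neurotransmitter carriers *SLC6A2* for noradrenaline, *SLC6A4* for serotonin and *SLC6A11* for GABA.

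Differences between the matrices built up over time. At 3 h 1 member was called, *SLC7A11*, which was lower on LN411. No member was called higher by DESeq2, with 2 at an unadjusted p-value under 0.05, and over all genes 0.183% were called higher and 0.200% lower at that time. At 6 h 2 of 32 members were higher and 5 lower, against 4.90% and 3.33% of all genes. At 24 h 12 of 43 members were higher and 14 lower, against 16.7% and 12.8% of all genes. The median SE at 24 h was 0.070 for the members and 0.094 for all genes. Its part in the difference of shares was not tested. The median log2 fold change of the members at 24 h was -0.10 and that of all genes 0.01. The 12 higher members had a median difference of 0.52 and the 14 lower ones of 0.74 in size on the log2 scale. In all, 26 members were called at some time and 22 at none. The 22 include *SLC3A1*, *SLC6A2* and *SLC7A14*, which had no adjusted p-value at any time, and others that lacked one at 6 h. All 7 members called at 6 h passed again at 24 h. The direction was kept by 6 and turned for *SLC7A11*. The remaining 19 were called at 24 h alone. Of all genes, 1065 were called at 6 h, and 750 of these were called again at 24 h. Among the 750, 15 turned from lower to higher and 28 from higher to lower. The counts of 26 and 19 were not taken over all genes.

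**Figure D1:**
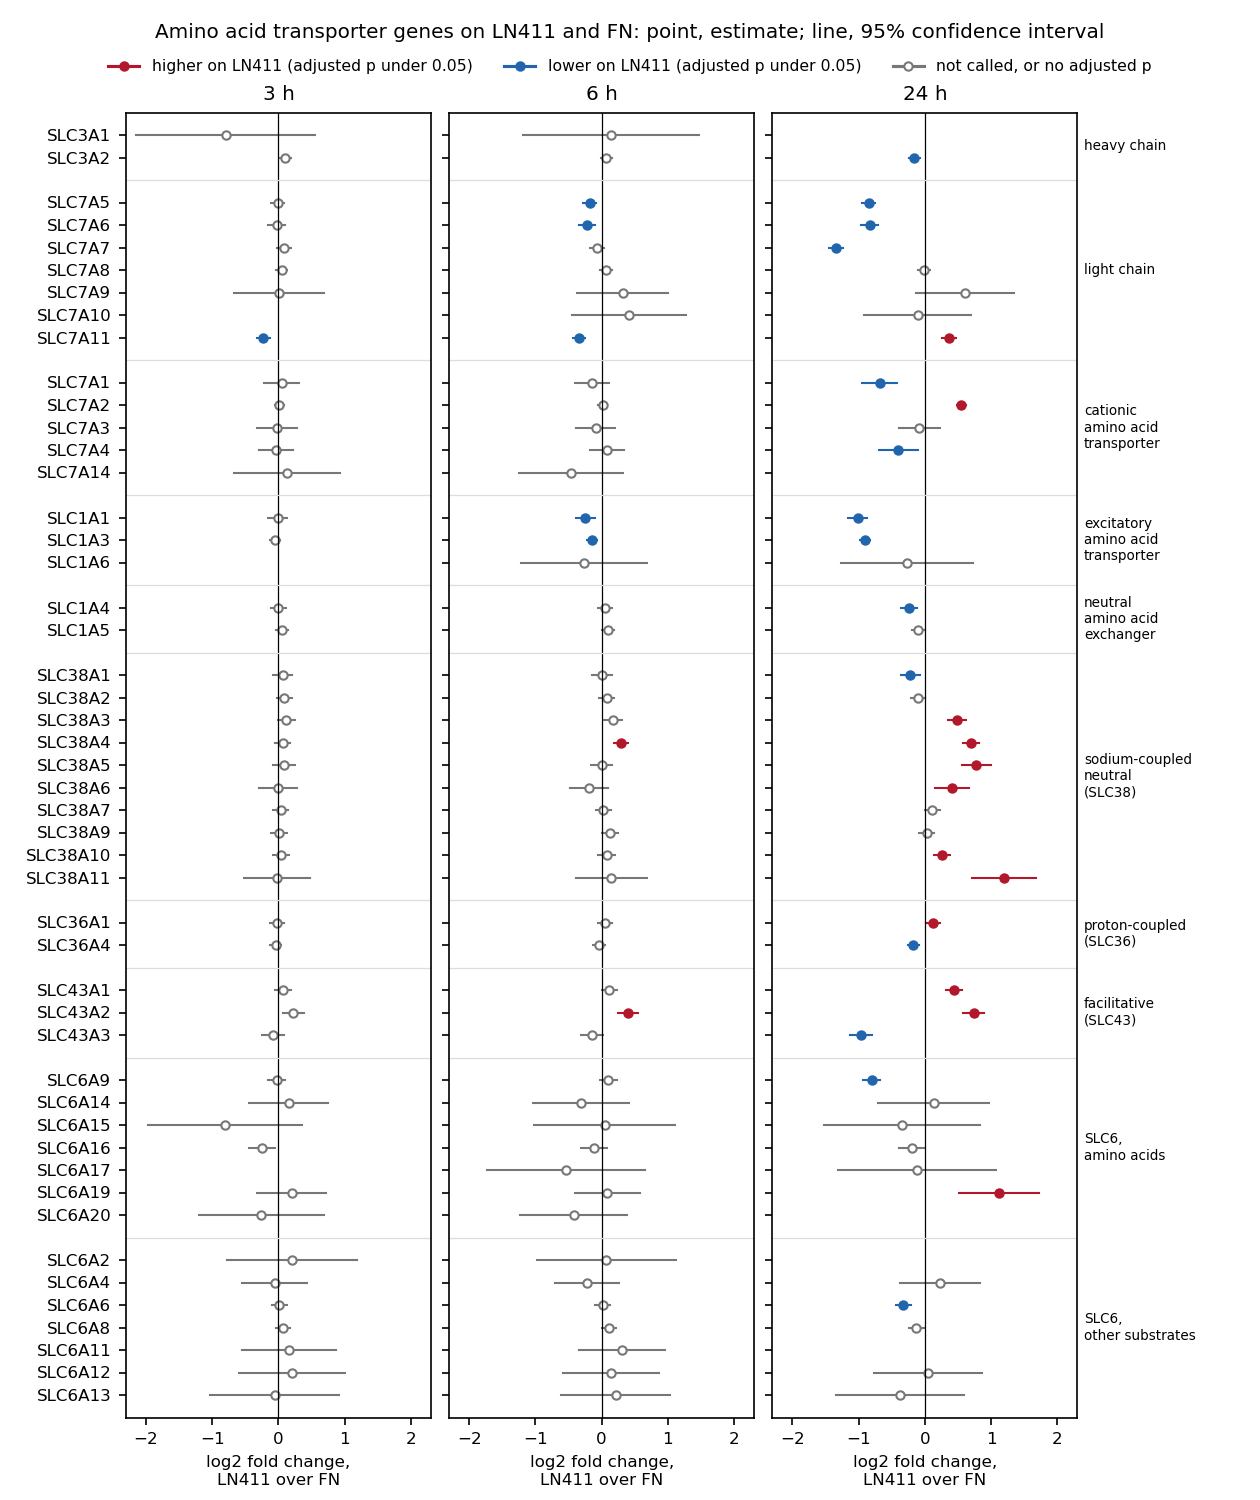
Log2 fold change of LN411 over FN (horizontal axes) for each of the 48 members, by transporter class, at 3, 6 and 24 h. Points are estimates, lines are 95% confidence intervals, and colour marks a call. Called members number 1 at 3 h, 7 at 6 h and 26 at 24 h, and *SLC7A11* lies left of zero at 3 and 6 h and right of it at 24 h.

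*SLC7A11* lies on chromosome 4 (GRCh38, 138164097 to 138242349, minus strand, ENSG00000151012) and had a mean normalized count of 3049. Its log2 fold change was -0.23 ± 0.05 (SE) at 3 h, with a 95% interval of -0.32 to -0.13, which is 14.5% lower on LN411 (adjusted p = 0.00176). At 6 h it was -0.34 ± 0.05 (interval -0.43 to -0.25), 21.1% lower (adjusted p = 7.71e-11). At 24 h the sign had turned, to 0.37 ± 0.05 (interval 0.26 to 0.47), 28.8% higher on LN411 (adjusted p = 2.21e-11). The estimates thus had 1 sign at the first 2 times and the other at the last, and none of the 3 intervals held zero. The 3 h call was lost when a t distribution with 12 degrees of freedom replaced the normal one (adjusted p = 0.331), while those at 6 and 24 h held.

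From 6 to 24 h the effect on *SLC7A11* rose by 0.71 ± 0.07 (SE, interval 0.57 to 0.84, adjusted p = 4.40e-22). From 3 to 24 h it rose by 0.59 ± 0.07 (interval 0.45 to 0.73, adjusted p = 3.40e-15). From 3 to 6 h the difference of -0.12 ± 0.07 did not pass (interval -0.25 to 0.02, unadjusted p = 0.0859). Of all genes listed, 28 were called lower at both 3 and 6 h. At 24 h 24 of these 28 were again lower, and 1, *SLC7A11*, was higher. A lower call at 6 h and a higher one at 24 h was seen in 15 genes in all, with *SLC7A11* and *GCLM*, a subunit of the enzyme that starts glutathione synthesis, among them. The antisense gene *SLC7A11-AS1* shares 865 bases, or 8.97%, of the exon sequence of *SLC7A11* on the opposite strand. Its mean count was 32.4, its log2 fold changes were -0.25, -0.70 and 0.34, and it was called at no time. Whether counting used the strand is not given in the sources used here.

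The heavy chain *SLC3A2*, also called CD98, is the partner of *SLC7A11* and of most other light chains measured. It lies on chromosome 11 (62856004 to 62888880, ENSG00000168003) with a mean count of 8305. Its log2 fold change was 0.10 ± 0.04 at 3 h (SE, adjusted p = 0.743) and then 0.07 ± 0.04 at 6 h (adjusted p = 0.359), neither of them called. At 24 h it was -0.16 ± 0.04, 10.5% lower on LN411 (adjusted p = 0.00196). From 6 to 24 h its effect fell by 0.23 ± 0.06 (adjusted p = 0.00302), the opposite direction to that of *SLC7A11*. The other heavy chain, *SLC3A1*, the partner of the cystine carrier *SLC7A9*, had a mean count of 6.89 and no adjusted p-value at any time.

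Of the 7 light chains listed at 24 h, 3 were lower, 1 was higher and 3 were not called (12.8% of all genes were lower and 16.7% higher). *SLC7A5*, the main carrier of large neutral amino acids such as leucine, stood at -0.01 ± 0.05 at 3 h, at -0.18 ± 0.05 at 6 h and then at -0.85 ± 0.05 at 24 h (SE). It was thus 11.8% lower on LN411 at 6 h (adjusted p = 0.00377) and became 44.5% lower at 24 h (adjusted p = 3.30e-64). *SLC7A6*, which exchanges cationic for neutral amino acids, went from -0.03 ± 0.06 at 3 h to -0.22 ± 0.06 at 6 h (adjusted p = 0.0131) and on to -0.83 ± 0.06 at 24 h (adjusted p = 1.29e-35). *SLC7A7*, which does the same exchange at the basal membrane of gut and kidney cells, was at 0.09 ± 0.05 and -0.07 ± 0.05 at 3 and 6 h and was not called there. At 24 h it stood at -1.34 ± 0.06, 60.5% lower on LN411 and the largest difference in size among the members (adjusted p = 1.35e-127). *SLC7A8*, a second carrier of large neutral amino acids, was at -0.01 ± 0.04 at 24 h with an interval of -0.10 to 0.07. *SLC7A9* and *SLC7A10* had mean counts of 20.5 and 12.8 and wide intervals.

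**Figure D2:**
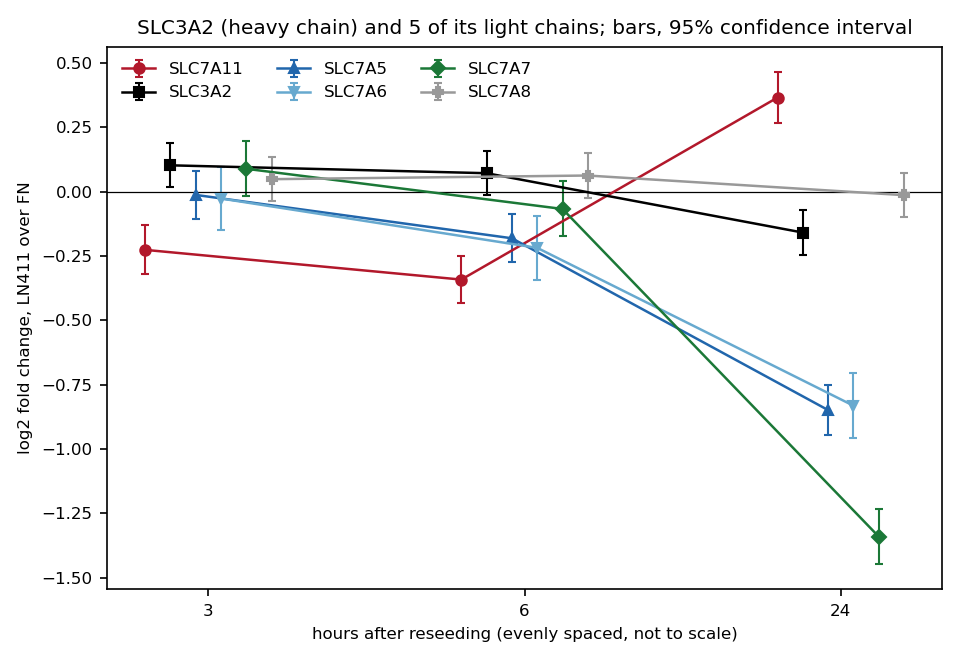
Log2 fold change of LN411 over FN (vertical axis) at 3, 6 and 24 h (horizontal axis) for the heavy chain *SLC3A2* and 5 of its light chains, with 95% confidence intervals as bars. *SLC7A11* moves from -0.34 at 6 h to 0.37 at 24 h, while *SLC7A5*, *SLC7A6* and *SLC7A7* reach -0.85, -0.83 and -1.34 and *SLC7A8* stays near zero.

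The neighbours *SLC7A7* and *SLC7A8* lie 295 kb apart on chromosome 14, and *SLC7A7* was lower at 24 h while *SLC7A8* was not called. For *SLC7A6*, 44.4% of the exon bases are shared with *SLC7A6OS* on the opposite strand. *SLC7A6OS* had a mean count of 368 and was at -0.19 ± 0.09 at 24 h (SE, adjusted p = 0.119). *SLC7A5* has near-identical copies elsewhere in the genome, and reads that align to more than 1 place are not counted. One such copy, *SLC7A5P1*, had a mean count of 29.1 and was called at no time.

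The cationic carriers split by direction at 24 h. *SLC7A1*, which is found in most cells and takes up arginine and lysine, was lower on LN411, at -0.68 ± 0.13 (SE, 37.5% lower, adjusted p = 5.15e-06). *SLC7A2*, the most abundant member, was higher, at 0.55 ± 0.03 (46.5% higher, adjusted p = 1.07e-56), after 0.01 ± 0.03 at 3 h and 0.02 ± 0.03 at 6 h. Both carry the same amino acids. *SLC7A4*, whose transport role is not settled, was at -0.40 ± 0.15 (adjusted p = 0.0265, and 0.0741 with a t distribution), and 73.6% of its exon bases are shared with another gene annotated on the same strand. *SLC7A3* was at -0.08 ± 0.16 and was not called.

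Both excitatory amino acid transporters with a high count, which take up glutamate and aspartate with sodium, were lower on LN411 from 6 h. *SLC1A1* was at -0.01 ± 0.07 at 3 h, -0.24 ± 0.08 at 6 h (SE, adjusted p = 0.0197) and then -1.01 ± 0.07 at 24 h (adjusted p = 3.77e-42), where it was 50.5% lower. *SLC1A3* was at -0.05 ± 0.04, -0.14 ± 0.04 (adjusted p = 0.00376) and -0.90 ± 0.04 (adjusted p = 1.80e-124), 46.5% lower at 24 h. *SLC1A6* had a mean count of 10.4 and was not called. *SLC1A1* can also carry cysteine, and at 24 h this carrier and *SLC7A11* differed in opposite directions. Of the neutral amino acid exchangers of the same family, *SLC1A4* was lower at 24 h (-0.24 ± 0.06, adjusted p = 6.53e-04). *SLC1A5*, the glutamine exchanger, was not called at any time (-0.10 ± 0.05 at 24 h, interval -0.20 to 0.00), although its effect fell by 0.19 ± 0.07 from 6 to 24 h (adjusted p = 0.0426). That change was lost with a t distribution (adjusted p = 0.134) and without the GC content and length trends (difference -0.12, adjusted p = 0.317).

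With a t distribution the 6 h calls of *SLC1A1*, *SLC1A3*, *SLC7A5* and *SLC7A6* were lost, with adjusted p-values of 0.120, 0.0700, 0.0700 and 0.106. All 4 were called at 24 h under every alternative run.

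In the SLC38 family, most of whose members take up small neutral amino acids with sodium, the calls at 24 h were mainly higher. Of its 10 members, 6 were higher on LN411 at 24 h, 1 was lower and 3 were not called, where 16.7% of all genes were higher and 12.8% lower. *SLC38A4* was called from 6 h, at 0.29 ± 0.06 (SE, 22.2% higher, adjusted p = 2.05e-05), and reached 0.69 ± 0.06 at 24 h (61.5% higher, adjusted p = 7.88e-28). *SLC38A3* and *SLC38A5*, which carry glutamine, asparagine and histidine with sodium in exchange for protons, were at 0.49 ± 0.07 (adjusted p = 6.06e-11) and 0.77 ± 0.11 (adjusted p = 1.15e-10) at 24 h, with values from 0.00 to 0.17 in size at 3 and 6 h. *SLC38A6* was at 0.41 ± 0.13 (adjusted p = 0.00901) and *SLC38A10* at 0.26 ± 0.06 (adjusted p = 3.99e-04). *SLC38A11* had the highest estimate, 1.19 ± 0.25 (adjusted p = 1.37e-05), at a mean count of 47.6.

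The general uptake carriers *SLC38A1* and *SLC38A2* were not among the higher members. *SLC38A1* was lower at 24 h (-0.22 ± 0.07 SE, adjusted p = 0.0148, and 0.0547 with a t distribution). *SLC38A2*, a carrier well known to be induced by amino acid shortage and the second most abundant member, was at -0.10 ± 0.06 and was not called (interval -0.21 to 0.01). *SLC38A1*, *SLC38A2* and *SLC38A4* lie in 1 cluster on chromosome 12, with gaps of 88.2 and 392 kb, and their 24 h estimates were thus -0.22, -0.10 and 0.69. The lysosomal members *SLC38A7* and *SLC38A9*, the second of which senses arginine for mTORC1, were at 0.11 ± 0.06 and 0.03 ± 0.06 and were not called.

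The proton-coupled carriers *SLC36A1* and *SLC36A4*, which act at lysosomes among other membranes, differed little. *SLC36A1* was higher at 24 h (0.12 ± 0.05 SE, adjusted p = 0.0497, and 0.106 with a t distribution) and *SLC36A4* lower (-0.18 ± 0.04, adjusted p = 2.49e-04). Of the SLC43 carriers, *SLC43A1* and *SLC43A2*, which let large neutral amino acids through without sodium, were higher. *SLC43A2* was at 0.22 ± 0.08 at 3 h (adjusted p = 0.459), 0.40 ± 0.08 at 6 h (adjusted p = 1.82e-05) and then 0.74 ± 0.08 at 24 h (adjusted p = 3.94e-19). *SLC43A1* was called at 24 h, at 0.43 ± 0.06 (adjusted p = 2.84e-11). *SLC43A3*, which carries purine nucleobases and not amino acids, was lower, at -0.96 ± 0.08 (48.7% lower, adjusted p = 2.16e-30). *SLC43A3* and *SLC43A1* lie 57.0 kb apart on chromosome 11, and 29.9% of the exon bases of *SLC43A3* are shared with another gene annotated on the same strand. Among the carriers of large neutral amino acids, *SLC7A5* was thus lower at 24 h, *SLC43A1* and *SLC43A2* were higher and *SLC7A8* was not called.

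Of the SLC6 carriers of amino acids, *SLC6A9*, which takes up glycine, was at -0.03 ± 0.06 at 3 h and 0.10 ± 0.06 at 6 h, and then 42.5% lower on LN411 at 24 h (-0.80 ± 0.07 SE, adjusted p = 4.10e-32). *SLC6A19*, the neutral amino acid carrier of the gut and kidney brush border, was higher at 24 h (1.12 ± 0.31, adjusted p = 0.00152) at a mean count of 42.5. *SLC6A14*, *SLC6A15*, *SLC6A16*, *SLC6A17* and *SLC6A20*, which were placed in the same class here, were called at no time. Of these, *SLC6A16* alone had an adjusted p-value at 6 h. Of the SLC6 carriers of other substrates, *SLC6A6*, the taurine carrier, was lower at 24 h (-0.32 ± 0.06, adjusted p = 2.07e-07). *SLC6A8*, the creatine carrier, was not called (-0.13 ± 0.06, adjusted p = 0.0692). *SLC6A2*, *SLC6A4*, *SLC6A11*, *SLC6A12* and *SLC6A13* had mean counts between 9.58 and 57.5, no adjusted p-value at 6 h and no call.

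**Figure D3:**
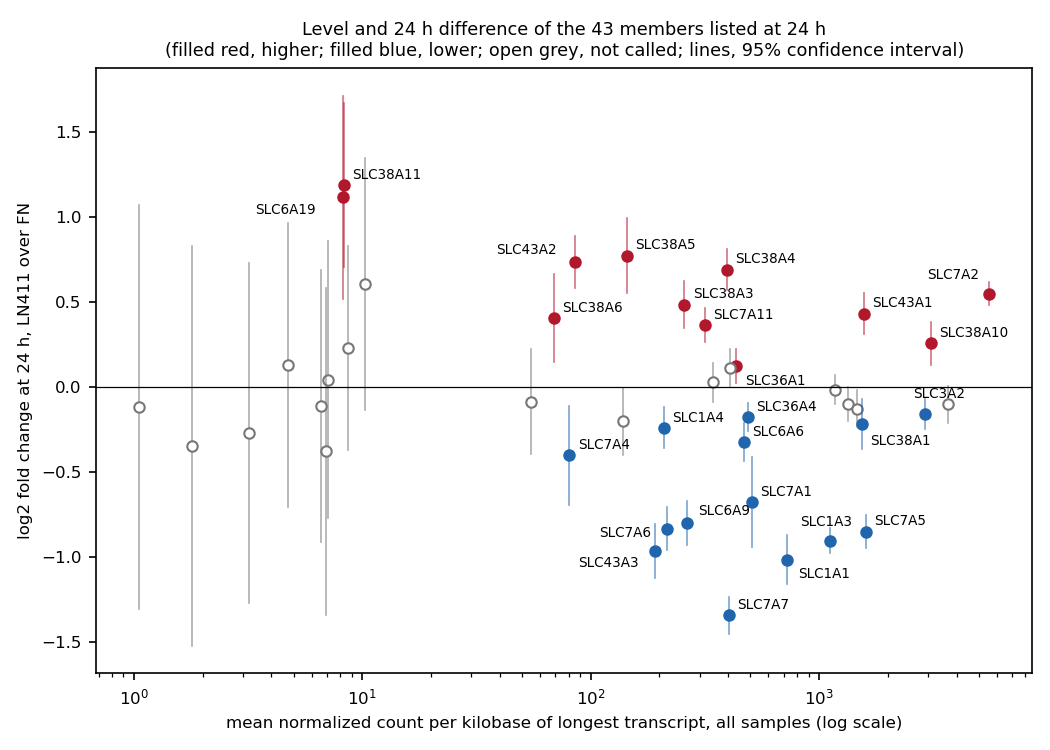
Log2 fold change at 24 h (vertical axis, LN411 over FN) against the mean normalized count per kilobase over all samples (horizontal axis, log scale) for the 43 members listed at 24 h, with 95% confidence intervals as lines. Of the 23 members with a mean count of at least 1000, 6 are higher and 11 lower, and of the 11 listed members with a mean count under 100, 2 are higher and none is lower. The shares of all genes within these ranges of count were not computed.

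The change between times was tested for each member. From 3 to 6 h 0 of 45 members passed in either direction, against 0.111% of all genes rising and 0.146% falling. In this comparison of the DESeq2 estimates 1 member rose and 4 fell at an unadjusted p-value under 0.05. From 6 to 24 h the effect rose for 9 of 43 members and fell for 13, against 6.24% and 6.51% of all genes. From 3 to 24 h it rose for 8 of 40 and fell for 12, against 8.85% and 8.18% of all genes. The largest fall from 6 to 24 h was that of *SLC7A7*, by 1.27 ± 0.08 (SE, adjusted p = 2.08e-57), and the next was that of *SLC6A9*, by 0.90 ± 0.09 (adjusted p = 4.19e-21). *SLC43A3*, *SLC1A1*, *SLC1A3*, *SLC7A5* and *SLC7A6* fell by 0.82, 0.77, 0.76, 0.67 and 0.61. *SLC38A5* rose by 0.78 ± 0.14 and *SLC7A2* by 0.53 ± 0.05. *SLC38A11* rose by 1.05 ± 0.37 (adjusted p = 0.0379), and this call was lost with a t distribution (adjusted p = 0.126). Of the 9 rises, 5 passed with a t distribution and 5 at an adjusted p-value under 0.01. *SLC7A11* was the one member whose effect rose from a called lower value.

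Genes that act with these carriers were taken from 5 lists. Of 32 genes of the amino acid response listed at 24 h, 3 were higher on LN411 and 15 lower, against 16.7% and 12.8% of all genes, with a median log2 fold change of -0.16. *ATF4* was at -0.30 ± 0.07 (SE, adjusted p = 2.38e-04). *STC2*, a secreted glycoprotein, was at -1.12 ± 0.05 (adjusted p = 3.56e-131), and *PSAT1*, an enzyme of serine synthesis, at -0.65 ± 0.06 (adjusted p = 1.21e-22). *DDIT4*, an inhibitor of mTORC1, was higher (0.61 ± 0.05, adjusted p = 1.24e-34), as was *PHGDH*, the first enzyme of serine synthesis (0.31 ± 0.03, adjusted p = 3.05e-19). The 3 higher and the 15 lower genes thus included enzymes of 1 pathway in opposite directions. At 6 h 4 of 30 genes of the list with an adjusted p-value were higher and 1, *STC2*, was lower. These shares were 13.3% and 3.33%, against 4.90% and 3.33% of all genes.

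Of 19 genes of the cystine, glutathione and NRF2 list, 9 were higher at 24 h by DESeq2 and 0 lower, with a median of 0.16. Of all genes, 16.7% were higher and 12.8% lower at that time. None was lower at an unadjusted p-value under 0.05 either. *NFE2L2*, which encodes NRF2, was at -0.07 ± 0.03 (SE, adjusted p = 0.133). *NQO1*, a quinone reductase, was at 0.72 ± 0.16 (adjusted p = 1.01e-04). *KEAP1*, which marks NRF2 for breakdown, was at 0.31 ± 0.04 (adjusted p = 1.99e-14), *AIFM2*, which guards lipids against oxidation, at 0.33 ± 0.07 (adjusted p = 3.55e-06) and *GCLM* at 0.28 ± 0.05 (adjusted p = 1.13e-06). At the earlier times the list's calls were lower on LN411. They were 1 of 19 genes at 3 h and 3 of 18 at 6 h. Of all genes, 0.200% and 3.33% were called lower at those times. *NFE2L2* was at -0.15 ± 0.03 at 3 h (adjusted p = 0.00544) and then -0.25 ± 0.03 at 6 h (adjusted p = 5.06e-12). *GCLM* was at -0.17 ± 0.05 at 6 h (adjusted p = 0.00814), and the third call at 6 h was that of *TXNRD1*. The values of *GCLM* at 6 and 24 h thus lay on the same sides of zero as those of *SLC7A11*.

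Of 36 genes by which mTORC1 senses amino acids, 12 were higher at 24 h and 3 lower (33.3% and 8.33%, against 16.7% and 12.8% of all genes), with a median of 0.05. *FNIP2*, *SESN3*, *SESN1* and *MLST8* were at 0.39, 0.29, 0.35 and 0.25, and *MTOR* was at -0.08 ± 0.04 and was not called (SE, adjusted p = 0.0974). Of 17 amino acid and peptide carriers of other families, 2 were higher and 3 lower, with a median of -0.04, and these shares of 11.8% and 17.6% were close to those of all genes. The mitochondrial aspartate and glutamate carrier *SLC25A12* was at 1.65 ± 0.15 (adjusted p = 4.11e-27) and the vesicular glutamate carrier *SLC17A8* at -1.78 ± 0.29 (adjusted p = 2.11e-08). The peptide carrier *SLC15A2* was at -0.77 ± 0.15 and the lysosomal sialic acid carrier *SLC17A5* at -0.24 ± 0.05, and *SLC16A10*, a carrier of aromatic amino acids, was at 0.16 ± 0.07 and was not called. Of 18 genes of glutamine, glutamate and branched-chain metabolism, 4 were higher and 2 lower, with a median of 0.00, and these shares of 22.2% and 11.1% were also near those of all genes. *BCAT2* and *BCKDHB*, which break down branched-chain amino acids, were at 0.52 ± 0.07 and 0.28 ± 0.06. *GLUL*, which makes glutamine, was at 0.23 ± 0.03, and *ARG2*, which splits arginine, at -0.37 ± 0.07.

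**Figure D4:**
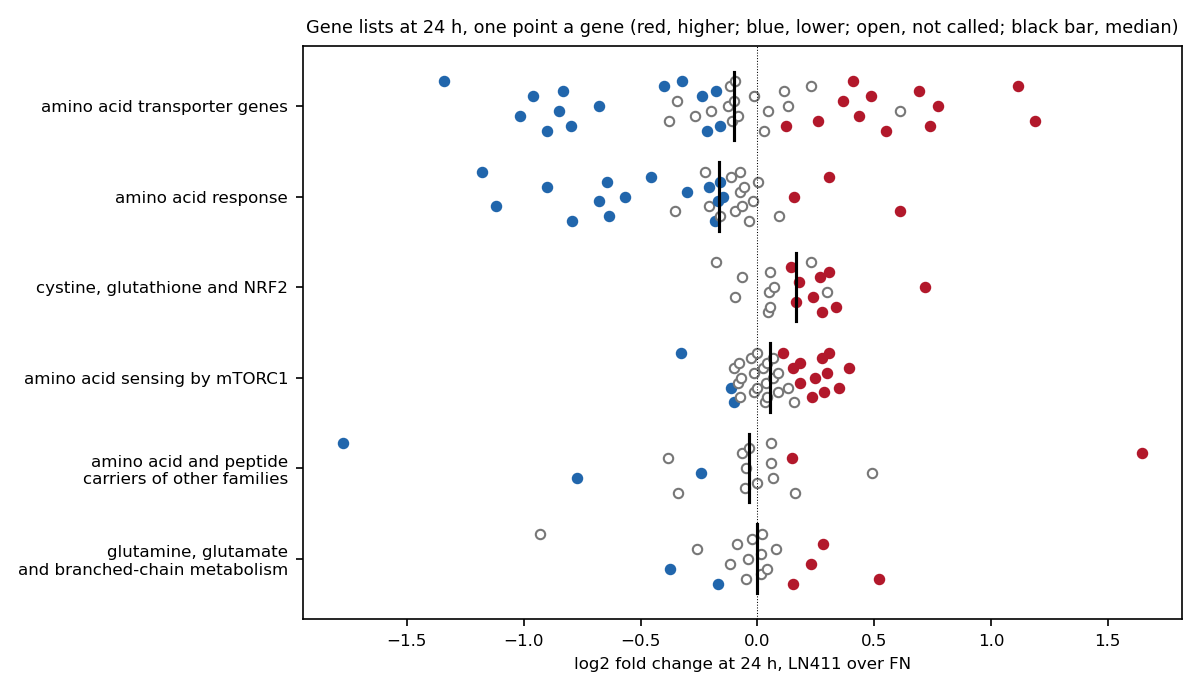
Log2 fold change at 24 h (horizontal axis, LN411 over FN) of each listed gene in the amino acid transporter genes and in 5 lists of genes that act with them, with the list's median as a bar. The amino acid response has 15 lower and 3 higher genes, the cystine, glutathione and NRF2 list 9 higher and 0 lower, and the transporters 14 lower and 12 higher.

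Cell type markers were also compared between the matrices at 24 h, when 16.7% of all genes were called higher and 12.8% lower. Among 9 pancreatic progenitor markers, which check the labelled cells, *PDX1* and *SOX9* had mean counts of 12933 and 20672, and *PTF1A* stood at 12.5. *PDX1* was at 0.60 ± 0.03 (SE, adjusted p = 1.70e-71) at 24 h, *GATA4* was also higher, and 7 of the 9 were not called. The 2 higher markers make up 22.2% of the list, near the share of all genes. Of 8 endocrine markers, 5 were higher at 24 h by DESeq2 and 0 lower (0 also at an unadjusted p-value under 0.05), with a median of 1.29, and *NEUROG3*, the factor that starts endocrine differentiation, was at 2.54 ± 0.12 (adjusted p = 1.99e-98). *INS* and *GCG* had mean counts of 8.32 and 16.3 and were not called. Of 4 hepatic markers 3 were higher, and of 4 acinar markers 2. Of 4 duct markers 1 was higher and 2 were lower, of 5 mesenchyme markers 1 was higher and 1 lower, and of 3 neural markers 1 was lower. These lists of 3 to 5 genes are too short to set against the shares of all genes. The pluripotency marker *SOX2* had a mean count of 9.44, and *POU5F1* and *NANOG* were not analysed here. Summed levels of each marker list per group need values per sample and were not computed, and the part of these cells in the members' differences was not tested.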

How the data were processed

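RNA was sequenced from 18 samples as poly(A)-selected libraries. According to the methods, the authors aligned reads with STAR 2.7.2d to GRCh38.p13 (GENCODE v32), counted uniquely aligned reads on genes and contrasted the matrices within each time by DESeq2 1.34.0. In the authors' deposited table, the mean normalized count is a signal over all samples, the fold change and SE are log2 values, the Wald statistic is a score, and the p-value is two-sided with a Benjamini-Hochberg adjustment over genes that passed independent filtering. These are columns of the authors' own comparison, and no values per sample were used here, so library depth is unknown. The replicates are biological according to the methods, and the labels do not say from which cultures they came. The p-values set each estimate against its SE, which rests on the spread between these samples.

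Adjusted p-values were recomputed (largest gap 9.72e-06). A mean count under 17.1 at 3 h or 108 at 6 h left a gene without one. Intervals are 95% normal intervals. Differences between times were divided by the root of the summed squared SE, taking times as independent, and adjusted over all genes listed at both. Calculations used Python 3.11.15, pandas 2.3.3 and scipy 1.17.1, tested on simulated data. Positions, exons and lengths are those of GENCODE v44 on GRCh38. Promoters are RefSeq's.

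The members and gene lists were chosen with earlier results of these data known. Named in full were *SLC7A11*, *SLC3A2*, members called at 3 or 6 h, the 10 higher and 10 lower members with the smallest adjusted p-values at 24 h, and members whose effect differed between 2 times. From each list, the first gene and up to 4 with the smallest adjusted p-values were named, and some results for single genes are left out. Other genes given with values, such as *SLC7A3*, *SLC7A4*, *SLC7A8*, *SLC36A1*, *SLC38A2*, *SLC38A7*, *SLC38A9*, *SOX9*, *PTF1A*, *INS*, *GCG* and *SOX2*, were chosen after their values were seen. Alternatives tried were a stricter threshold of 0.01, a mean count of at least 10, a log2 limit of 0.5, a t distribution, leaving out the independent filter, subtracting trends with GC content and length, and levels per union of exons.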

Additional observations from a re-analysis of the deposited data

Results flagged for a closer look

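For 23 members the effect of LN411 over FN differed between 2 times, by the difference of the log2 fold changes at an adjusted p-value under 0.05 (DESeq2 estimates, adjusted over every gene with both estimates). For 22 of them this was the change from 6 to 24 h, which 6.24% of all genes passed as a rise and 6.51% as a fall. The effect rose by 0.71 for *SLC7A11*, 0.53 for *SLC7A2*, 0.31 for *SLC38A3*, 0.40 for *SLC38A4*, 0.78 for *SLC38A5*, 0.59 for *SLC38A6*, 1.05 for *SLC38A11*, 0.32 for *SLC43A1* and 0.34 for *SLC43A2*. It fell, with a difference of -0.77 for *SLC1A1*, -0.76 for *SLC1A3*, -0.29 for *SLC1A4*, -0.19 for *SLC1A5*, -0.23 for *SLC3A2*, -0.34 for *SLC6A6*, -0.24 for *SLC6A8* and -0.90 for *SLC6A9*. The differences of the other members that fell were -0.53 for *SLC7A1*, -0.67 for *SLC7A5*, -0.61 for *SLC7A6*, -1.27 for *SLC7A7* and -0.82 for *SLC43A3*. For *SLC38A1* the change from 3 to 24 h passed, with a difference of -0.28. With a t distribution the change from 6 to 24 h was lost for *SLC1A4*, *SLC1A5*, *SLC6A8*, *SLC7A1*, *SLC38A3*, *SLC38A6*, *SLC38A11* and *SLC43A2* (adjusted p-values of 0.0516, 0.134, 0.0994, 0.132, 0.0805, 0.103, 0.126 and 0.0943), and that of *SLC38A1* from 3 to 24 h as well (0.124). *SLC7A11* alone among the 23 was called lower at the earlier time and higher at the later one. A search for samples standing apart within a group needs values per sample and was not run.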

How the results depend on the processing

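No result reversed under any alternative. At an adjusted p-value under 0.01, 3 members were lower at 6 h and the effect rose from 6 to 24 h for 5. With a t distribution with 12 degrees of freedom, 0 members were lower at 3 h and 1 at 6 h, the effect rose from 6 to 24 h for 5, and *SLC7A11* at 3 h had an adjusted p-value of 0.331. A limit of 0.5 on the log2 fold change left 0 members lower at 3 h, 0 higher and 0 lower at 6 h, and 6 higher and 8 lower at 24 h. *SLC7A11* fell under that limit at each time, with unchanged adjusted p-values of 0.00176, 7.71e-11 and 2.21e-11. Of the results for single members, 18 lost their call with the t distribution, 14 at 0.01, 20 with the fold limit and 3 without the GC content and length trends (*SLC1A5* and *SLC6A8* from 6 to 24 h, *SLC38A1* from 3 to 24 h). No independent filtering, a minimum mean count and levels per union of exons changed no call and not the 10 highest levels. Trend removal moved members by at most 0.044, 0.081 and 0.045 on the log2 scale at 3, 6 and 24 h. After it, 15 members were called lower at 24 h, against 14 without it. No paired analysis was possible because the deposited table holds no values per sample, and for the same reason fits without single samples were not run. Members with a mean count under 100 had a median SE of 0.42 at 24 h, so that small differences in them were not detectable.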

Other observations

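Some carriers of the same substrates went the same way at 24 h. These were *SLC1A1* and *SLC1A3* (-1.01 and -0.90) and *SLC7A6* and *SLC7A7* (-0.83 and -1.34) among the lower. Among the higher were *SLC38A3* and *SLC38A5* (0.49 and 0.77) and *SLC43A1* and *SLC43A2* (0.43 and 0.74). Other carriers of shared substrates differed in direction. The arginine and lysine carriers *SLC7A1* and *SLC7A2* were at -0.68 and 0.55, with intervals of -0.94 to -0.41 and 0.48 to 0.62. The leucine carriers *SLC7A5* and *SLC43A2* were at -0.85 and 0.74, with intervals of -0.95 to -0.75 and 0.58 to 0.89. In terms of fold, FN exceeded LN411 2.53-fold for *SLC7A7* and 2.02-fold for *SLC1A1*, while LN411 exceeded FN 2.28-fold for *SLC38A11* and 2.17-fold for *SLC6A19*, both of them low in count, and 1.71-fold for *SLC38A5*. *SLC7A2* had the highest level of the members, with a mean normalized count of 42532 over all samples.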
